A study of Mus musculus with 3 samples.

Results

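The genes described here encode podoplanin and 8 other surface proteins used to recognise stromal cells: Pdpn, Thy1, Cd34, Eng, Alcam, Vcam1, Icam1, Cd248 and Lepr. They were taken by symbol from a table of read counts per NCBI gene ID, and all 9 were found among its 27179 genes. The table holds 3 RNA-seq libraries that form a single group: adipose stem and progenitor cells from epididymal fat, taken from male C57B6 mice aged 12 weeks that were naive and wild type. Live cells without CD45, CD31 and Ter119 (proteins of leukocytes, endothelium and red cell precursors) and with CD140a (the product of Pdgfra), Sca1 (that of Ly6a) and podoplanin were collected after collagenase II digestion. The labels name no transgene, deletion or treatment, and no unsorted or podoplanin-negative cells are among the samples. The study sought to describe the transcriptome of adipose progenitors, so what can be compared is levels between genes and between replicate libraries.

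Stromal cells of fat and lymphoid organs carry glycoproteins through which they hold on to matrix, to other cells and to passing leukocytes. Podoplanin is a mucin-type protein that binds the platelet and dendritic cell receptor CLEC-2 and links to actin through ezrin-family proteins. VCAM-1, ICAM-1, ALCAM and Thy-1 belong to the immunoglobulin superfamily and bind integrins or, in the case of ALCAM, CD6. Endoglin is a co-receptor for TGF-beta and BMP ligands, and the leptin receptor signals through JAK2 and STAT3. CD34 is a sialomucin, and CD248 (endosialin) is a C-type lectin of fibroblasts and pericytes.

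Library totals ranged from 25060096 to 32813373 counts. Levels are given as CPM, read counts per 1000000 of the TMM-scaled library total, and comparisons between genes use CPM per kilobase of exon. Detection meant a level of at least 1 CPM in all 3 libraries. The limit that a count of 0 allows, 3 counts, was 0.0945, 0.119 and 0.107 CPM in libraries 1, 2 and 3. It covers counting error only, since amplified reads without molecular identifiers are not independent molecules. The labels name 3 mice but do not say that each library is 1 mouse, so part of the spread between them may be technical. The 6 adipose stroma marker genes (Pdgfra, Ly6a, Dcn, Col1a1, Col3a1 and Lum) were all detected and summed to 52349.5 to 70729 CPM. Of these, Pdgfra and Ly6a encode proteins that the sort selected, and Dcn gave most of the sum (47958, 41493 and 37405 CPM).

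Marker lists of other cell types that can carry these surface proteins were low. The blood endothelial and pan-leukocyte lists include Pecam1 and Ptprc, the genes of CD31 and CD45, which the sort excluded. Of 7 blood endothelial markers, 0 were detected, Esam had 0 counts, and the list summed to 0.158 to 0.393 CPM. Of 5 lymphatic endothelial markers, 0 were detected, and the list summed to 0.286 to 3.57 CPM. Prox1, the regulator that defines this lineage, had 0 counts, and most of the sum in library 2 was from the receptor gene Flt4, with 3, 84 and 2 counts. None of the 7 mesothelial markers was detected (0.567 to 7.73 CPM summed), and the keratin gene Krt18 made up most of that sum in libraries 2 and 3 with 192 and 96 counts. None of the 5 T cell markers was detected either (5.80, 0.277 and 7.43 CPM summed). Nearly the whole T cell sum in libraries 1 and 3 was from the CD3 delta gene Cd3d, with 183, 0 and 205 counts, while the CD3 epsilon gene Cd3e had 1 count in all and the T cell kinase gene Lck had 0. The pan-leukocyte list had 1 of 5 detected, Ptprc, and summed to 5.45, 39.2 and 20.5 CPM. The pericyte and smooth muscle list also had 1 of 8, the desmin gene Des, and summed to 11.03, 15.2 and 24.2 CPM, with the pericyte genes Rgs5 and Higd1b at 0 counts. In bulk libraries of this kind, fewer cells of a type and less RNA per cell cannot be told apart.

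**Figure D1:**
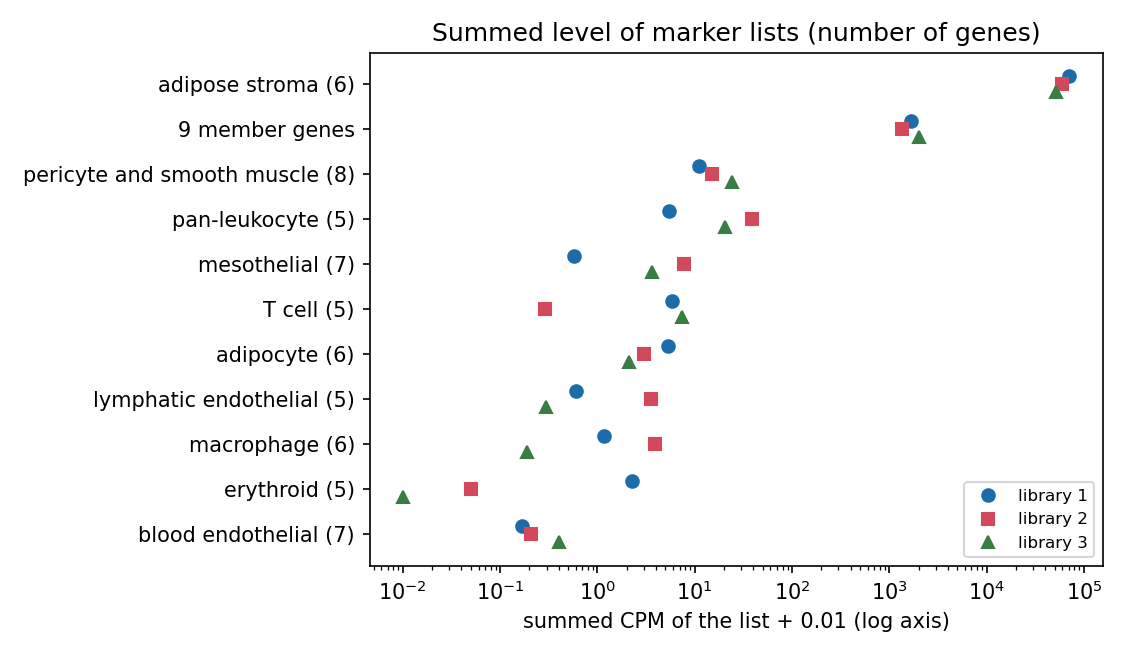
Summed CPM of each marker list (log axis, 0.01 added so that 0 can be drawn), with 1 symbol per library and the number of genes in brackets. The 9 member genes sum to 1354 to 2015 CPM, between the adipose stroma list and the lists of other cell types, all of which stay below 40 CPM. Most of the member sum is from Cd34 and Cd248, while Eng, Lepr and Alcam have means of 18.6, 7.97 and 7.91 CPM.

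All 9 genes were detected in every library, in a table in which 35.0% of all genes and 43.7% of protein-coding genes were. Their median level was 47.9 CPM, beside 0.108 CPM over all genes and 1.90 CPM over protein-coding genes. The lowest single value was that of Lepr in library 3, at 2.46 CPM from 69 counts. At 5 CPM in every library, 28.3% of all genes and 7 of the 9 were still detected, the exceptions among the 9 being Lepr and Alcam. The least and the most abundant of them by mean CPM were Alcam, at 7.91, and Cd34, at 703.

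**Figure D2:**
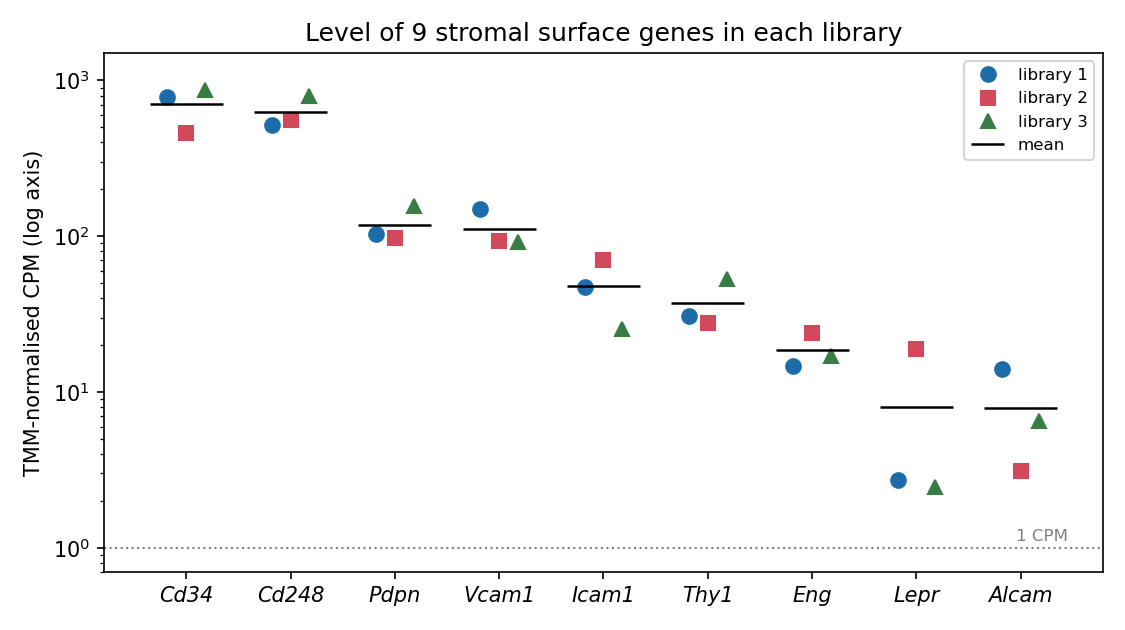
TMM-normalised CPM (log axis) of each gene in libraries 1, 2 and 3, with the mean as a black line and the detection threshold of 1 CPM dotted. Cd34 and Cd248 lie above 400 CPM in every library, while Lepr and Alcam have means of 7.97 and 7.91 CPM and the widest scatter.

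Pdpn, the gene of a protein that was itself selected in the sort, had the lowest level per kilobase among the genes of the proteins sorted for, below Pdgfra and Ly6a. Pdpn (gene 14726, chromosome 4, 143267409 to 143299564, GRCm38) had 3286, 2453 and 4348 counts, or 104, 97.2 and 155 CPM (119 ± 31.9, SD, n = 3). Library 3 was the highest and the other two lay close together. Because the cells were gated on podoplanin, this level describes gated cells and says nothing of how the gene is distributed in the tissue. Per kilobase, Pdpn stood at 65.3 ± 17.5 CPM, higher than 91.7% of the 9147 detected protein-coding genes with a length. Pdgfra, the PDGF receptor gene, was 2.27-fold higher per kilobase at 148 CPM, a difference of -1.21 ± 0.37 on the log2(CPM per kilobase + 0.5) scale for Pdpn minus Pdgfra, with that sign in 3 of 3 libraries. With the length of the longest protein-coding transcript this difference was -1.76 ± 0.37. Ly6a, at 2700 CPM per kilobase, was 41.3-fold higher than Pdpn, but its near-identical family members make its count uncertain. Of the genes of excluded proteins, Ptprc (CD45) had 172, 398 and 215 counts and Pecam1 (CD31) had 1, 1 and 2.

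The region before the start of Pdpn is shown because this gene names the population. The 250 bases upstream of its RefSeq start (chr4:143299565-143299814, minus strand, GRCm38.p6) hold 2 CpG dinucleotides, where the median of 32851 such windows is 6. They hold 1 E-box, CACGTG, which begins 144 bases before the start and is printed in capitals. This motif, a palindrome read alike on both strands, occurs in 6.02% of the windows. No TATAAA (12.4% of windows, both strands) or GGGCGG (32.7%, both strands) is among these letters.
Pdpn: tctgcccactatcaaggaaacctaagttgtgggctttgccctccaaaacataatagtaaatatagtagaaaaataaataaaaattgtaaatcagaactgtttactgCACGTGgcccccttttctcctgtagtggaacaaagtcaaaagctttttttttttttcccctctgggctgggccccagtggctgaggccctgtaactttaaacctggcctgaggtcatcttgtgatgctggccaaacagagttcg

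Genes of proteins that bind podoplanin or act below it were mostly detected, while its leukocyte and platelet receptor was not. Of 12 such genes, 10 were detected, with a median of 152 CPM. The tetraspanin gene Cd9 led at 382 CPM per kilobase, above Pdpn. The actin linkers Rdx (radixin), Msn (moesin) and Ezr (ezrin) had 80.9, 36.3 and 34.05 CPM per kilobase. Radixin thus stood above its relatives in each library. Cd44, the hyaluronan receptor gene, had 206, 207 and 143 CPM. Pdpn exceeded Cd44 by 1.23 ± 0.66 on the log2 per-kilobase scale in 3 of 3 libraries. The GTPase gene Rhoa (119 ± 9.26 CPM) and the kinase genes Rock1 (227 ± 51.5 CPM) and Rock2 (265 ± 15.1 CPM) were among those detected. Clec1b, which encodes CLEC-2, and the chemokine gene Ccl21a had 0 counts in every library, although Ccl21a has near-identical copies that can take up its reads.

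Cd34 and Cd248 were the most abundant of the 9 genes. Cd34 (gene 12490, chromosome 1, 194938821 to 194961292), a sialomucin gene also known from blood stem cells and endothelium, had 787, 460 and 862 CPM (703 ± 214). Library 2 was low and the other two lay closer together. The lncRNA gene Gm16897 overlaps Cd34 and had 15.05 ± 1.97 CPM. Reads from the shared stretch cannot be assigned without strand. The sialomucin relatives Podxl and Podxl2 had 10 and 11 counts in all, and the blood endothelial list summed to at most 0.393 CPM in the same libraries. The part of endothelial cells in the Cd34 level was not tested.

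Cd248 (gene 70445, chromosome 19, 5068078 to 5070640), a single-exon gene in this annotation, had 516, 559 and 800 CPM (625 ± 153), with library 3 highest. Per kilobase it reached 240 ± 58.8 CPM, above 97.7% of the detected protein-coding genes. Its family holds thrombomodulin and 2 genes best known from endothelium. Thbd, the thrombomodulin gene, had 215 CPM per kilobase and differed from Cd248 by less than the spread between libraries (Cd248 minus Thbd, 0.13 ± 0.32 on the log2 scale, higher in 2 of 3 libraries). Cd93 had 2 counts in all, and Clec14a had 2, 0 and 161 counts. The pericyte and smooth muscle list was lowest and highest in the same libraries as Cd248, at 11.03, 15.2 and 24.2 CPM in libraries 1, 2 and 3. Des followed that order, at 5.13, 7.89 and 15.1 CPM. Cspg4 was also highest in library 3, at 1.70, 0.0396 and 5.18 CPM, as were Notch3 and Myh11. Other genes of the list differed: Kcnj8 had 69, 111 and 0 counts, Acta2 had 18, 60 and 32, and Rgs5 and Higd1b had 0. The part of such cells in the Cd248 level was not tested.

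The adhesion genes of the immunoglobulin superfamily ranked in the middle, except Alcam. Vcam1 (gene 22329, chromosome 3, 116110020 to 116129688), which encodes the integrin alpha-4 beta-1 ligand VCAM-1, had 149.8, 93.1 and 92.3 CPM (112 ± 33.0). Library 1 was the highest. Icam1 (gene 15894, chromosome 9, 21015940 to 21028814), whose product binds the leukocyte integrins LFA-1 and Mac-1, had 47.4, 70.9 and 25.4 CPM (47.9 ± 22.7). The libraries thus ordered differently for these 2 genes, with Icam1 highest in library 2 and lowest in library 3. Vcam1 exceeded Icam1 per kilobase in 2 of 3 libraries, by 0.26 ± 0.76 on the log2 scale, less than the spread. The other ICAM genes measured, Icam2, Icam4 and Icam5, had 2, 1 and 4 counts in all.

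Icam1 is a textbook target of NF-kB, and the stretch before its start is printed to show the motif that this factor is known to bind. The 250 bases upstream of the RefSeq start (chr9:21015690-21015939, plus strand, GRCm38.p6) hold 1 match to GGAANNTCC on either strand, in capitals, beginning 153 bases before the start. Such a match occurs in 3.59% of the 32851 windows, and in 1 of the 7 windows of the 6 genes with an entry (Pdpn, Cd34, Eng, Alcam, Icam1 and Lepr, the last with 2 starts). The window also holds GGGCGG on the reverse strand, 17 bases before the start, and 15 CpG dinucleotides.
Icam1: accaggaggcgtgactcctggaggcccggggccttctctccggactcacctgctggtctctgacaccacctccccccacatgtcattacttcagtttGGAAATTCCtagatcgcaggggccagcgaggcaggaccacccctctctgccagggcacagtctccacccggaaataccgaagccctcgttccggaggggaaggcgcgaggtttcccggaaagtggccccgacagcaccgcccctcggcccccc

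All 9 NF-kB target genes in the list set beside Icam1 and Vcam1 were detected, with a median of 40.8 CPM. They summed to 2360, 1871 and 2006 CPM, highest in library 1, as Vcam1 was, and lowest in library 2, where Icam1 was highest. Most of the sum was from Ccl2 (1561, 1294 and 1344 CPM) and Cxcl1 (431, 246 and 224 CPM). Like these, Il6, Birc3, Nfkb2 and Relb were highest in library 1. By contrast, Nfkbia, Nfkb1 and Tnfaip3 were lowest in library 1 and highest in library 3. The inhibitor gene Nfkbia had 183 ± 29.8 CPM, and Tnfaip3, which encodes the feedback regulator A20, had 84, 303 and 974 counts. These cells had been digested and sorted, and all 11 immediate-early and stress genes, such as Fos and Hspa1b, were detected, with summed levels of 15882, 20003 and 18105 CPM. That sum was highest in library 2, as were Icam1, Eng and Lepr. Within it, Hspa1a (767, 1469 and 864 CPM), Hspa1b (2777, 4683 and 2922 CPM), Fos, Atf3, Dnajb1 and Ier3 were highest in library 2. Fosb, Jun, Junb, Egr1 and Ier2 were highest in library 3. The part of these genes in the levels of Icam1, Eng and Lepr was not tested.

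Thy1 (gene 21838, chromosome 9, 44043384 to 44048579), the CD90 gene of mesenchymal cells and also of mouse T cells, had 30.6, 27.9 and 53.4 CPM (37.3 ± 14.0). Library 3 was the highest, and libraries 1 and 2 were alike. The T cell list was likewise highest in library 3 (7.43 CPM, of which Cd3d gave 7.32), and it summed to 5.80 CPM in library 1 and 0.277 CPM in library 2. The part of T cells in the Thy1 level was not tested. Alcam (gene 11658, chromosome 16, 52248996 to 52453081), the CD166 gene, had 14.0, 3.13 and 6.54 CPM (7.91 ± 5.59). Its counts of 446, 79 and 183 put its 95% exact Poisson interval at 12.8 to 15.4 CPM in library 1 and at 2.48 to 3.90 CPM in library 2. These intervals do not overlap, but they treat reads as independent and leave out any loss or amplification of molecules before sequencing. Without library 1 the mean of Alcam was 4.91 CPM.

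Leukocyte partners of these adhesion proteins did not pass the detection threshold, and integrin chains that many cell types share did. Of 13 counter-receptor genes, 4 were detected, and the median was 3.27 CPM. The detected ones were the integrin genes Itgb1 (469 ± 21.6 CPM), Itgav (444 ± 56.5 CPM) and Itgb3 (33.5 ± 8.48 CPM) and the syndecan gene Sdc4 (49.4 ± 11.6 CPM). The first is the common beta-1 chain, and the other three encode known binding partners of Thy-1. Cd6, the ALCAM receptor gene, had 1 count in all. Itga4, the alpha-4 chain that pairs with beta-1 to bind VCAM-1, had 2, 315 and 0 counts. Itgal, the LFA-1 alpha chain gene, had 0, 246 and 2 counts, and Itgb2, its beta chain gene, had 2, 0 and 279. Thus Itga4 and Itgal counts came almost wholly from library 2, the one with the highest pan-leukocyte sum, and those of Itgb2 from library 3. Vcam1 itself was below Itgb1 per kilobase by -3.18 ± 0.35 on the log2 scale (Vcam1 minus Itgb1), or -1.95 with the length of the longest protein-coding transcript.

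Eng was low beside most of the receptors it works with. Eng (gene 13805, chromosome 2, 32646595 to 32682669), which encodes endoglin (CD105), had 14.6, 24.1 and 17.1 CPM (18.6 ± 4.89). Library 2 was the highest, and the SD was 26.3% of the mean, against a median of 43.7% for 2235 detected protein-coding genes of like level. The 3' end of Eng overlaps Fpgs, which had 8.95 ± 3.20 CPM.

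The structural relative of endoglin and several of its receptor partners were more abundant per kilobase, and Bmpr2 and Acvr2b were not. Tgfbr3, the betaglycan gene and the structural relative of Eng, had 839, 1037 and 727 CPM. Its level per kilobase of 133 CPM was 28.9-fold that of Eng, with Eng minus Tgfbr3 at -4.72 ± 0.22 on the log2 scale in 3 of 3 libraries. The type II receptor gene Tgfbr2 was 25.8-fold above Eng (-4.57 ± 0.39). Acvrl1, which encodes ALK1, the type I receptor that endoglin serves in endothelium, had 44.6, 58.1 and 39.3 CPM and stood 2.42-fold above Eng (-1.20 ± 0.19). Both genes were highest in library 2. The other type I receptor genes Tgfbr1, Bmpr1a and Acvr1 had 32.8, 35.1 and 5.84 CPM per kilobase, the last close to the 4.59 of Eng. Among type II receptor genes, Acvr2a stood above Eng at 12.1 CPM per kilobase, whereas Bmpr2 and Acvr2b stood below it at 0.710 and 0.360. Of the 22 genes of the list, 18 were detected, with a median of 51.5 CPM. The ligand genes Bmp10 and Gdf2 (BMP9), which bind endoglin directly, had 1 count and 26 counts in all. Among the signal carriers, Smad4 had 164 ± 13.4 CPM, and the response gene Id3 had 566 ± 153 CPM.

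Lepr varied most between libraries. Lepr (gene 16847, chromosome 4, 101717137 to 101815352), which marks stromal cells of bone marrow and encodes the leptin receptor, had 86, 473 and 69 counts. These are 2.71, 18.7 and 2.46 CPM (7.97 ± 9.33), with exact 95% Poisson intervals of 2.17 to 3.35, 17.1 to 20.5 and 1.92 to 3.12 CPM. The intervals of libraries 1 and 3 overlapped, and library 2 was 7.61-fold above the lowest. Without library 2 the mean was 2.58 CPM. Library 2 also had the highest pan-leukocyte (39.2 CPM), macrophage (3.88 CPM), mesothelial (7.73 CPM) and lymphatic endothelial (3.57 CPM) sums. Members of those lists that were highest there with Lepr included Cd53 (1, 247 and 1 counts), Coro1a (0, 95 and 40), Ptprc (172, 398 and 215), Csf1r (2, 55 and 4), Cd68 (7, 43 and 0), Krt18 (2, 192 and 96) and Flt4 (3, 84 and 2). Others were highest elsewhere: the pan-leukocyte gene Cd52 had 0, 250 and 318 counts, and the macrophage gene Lyz2 had 25, 0 and 0. Adgre1, Prox1 and Laptm5 had 0 counts in library 2 and were near 0 in every library. The part of other cells in the Lepr level was not tested.

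Most genes of leptin receptor signalling were detected, some at steady and some at widely varying levels. Of 12 genes in this list, 10 were detected, with a median of 37.3 CPM, and the 2 that were not were Lep, the leptin gene of fat cells, and the feedback inhibitor gene Socs3 (326, 11 and 82 counts). From its lowest to its highest library Socs3 differed 23.6-fold, more than Lepr, and Lep had 5, 3 and 58 counts. The adaptor genes Irs2, Irs1 and Sh2b1 differed 5.14-, 3.53- and 3.28-fold, with Irs1 highest in library 2, Irs2 in library 1 and Sh2b1 in library 3. The kinase gene Jak2 had 76.6, 93.6 and 52.9 CPM, and the transcription factor gene Stat3 had 90.3, 109 and 101 CPM. Leprot, a separate neighbouring gene that regulates surface receptor traffic, had 77.7, 96.9 and 77.8 CPM. Lepr was below it by -5.06 ± 0.90 on the log2 per-kilobase scale (Lepr minus Leprot) in 3 of 3 libraries. Of the receptor chains related to Lepr, Csf3r had 5 counts in all and the others were higher than Lepr: Il6st, the gp130 gene, had 270 ± 2.34 CPM, Lifr 314 ± 82.3 CPM and Osmr 139 ± 41.1 CPM. Lepr minus Il6st was -4.22 ± 1.08 per kilobase on the log2 scale.

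**Figure D3:**
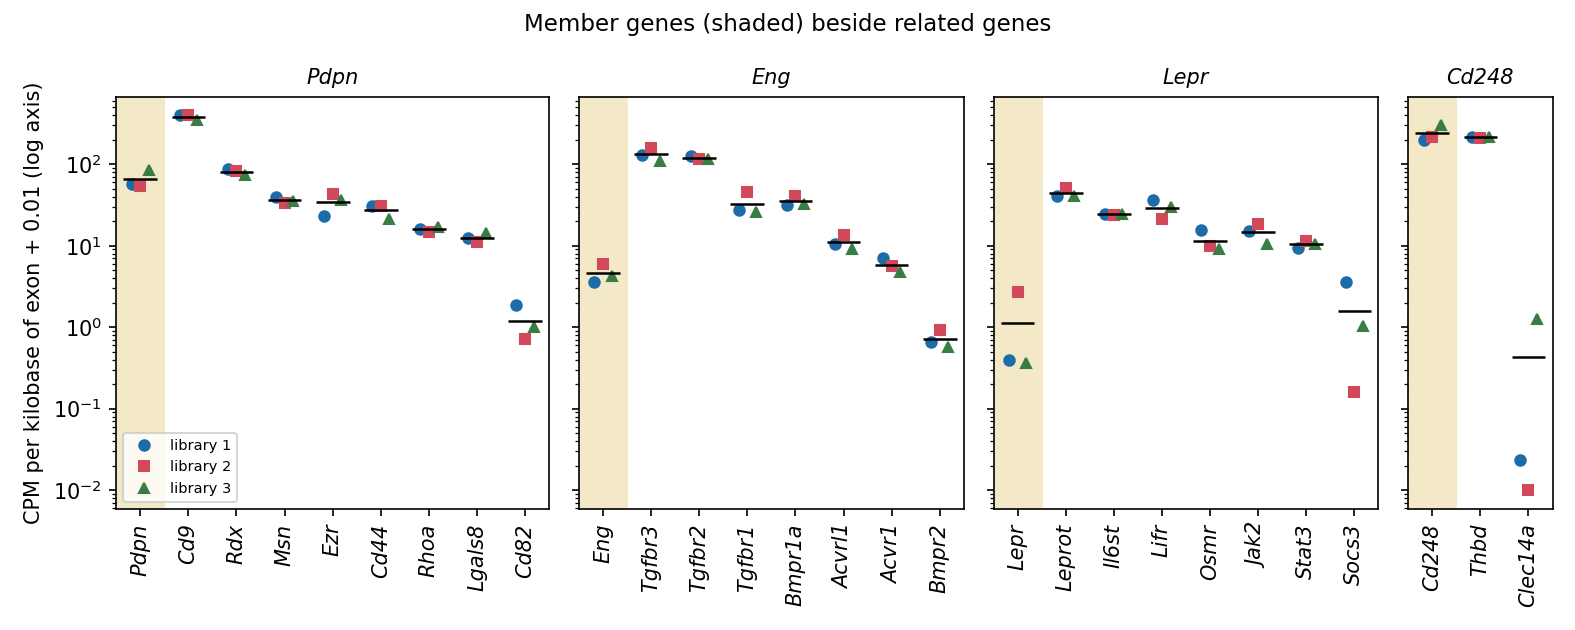
CPM per kilobase of exon (log axis, 0.01 added) of Pdpn, Eng, Lepr and Cd248 (shaded) beside genes of partners, receptors or relatives, with 1 symbol per library and the mean as a black line. Eng lies below Tgfbr3 and Tgfbr2 in every library, Lepr lies below Leprot, Il6st, Lifr and Jak2, and Cd248 overlaps Thbd.

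Ordered by mean level per kilobase, the genes ran Cd248 (240 CPM per kilobase), Cd34 (96.5), Pdpn (65.3), Vcam1 (12.6), Thy1 (12.4), Icam1 (10.98), Eng (4.59), Lepr (1.13) and Alcam (1.11). Thus Cd248, Cd34 and Pdpn formed an upper group, and Lepr and Alcam a lower one, near the bottom of the detected protein-coding genes (percentiles 6.96 and 6.71). Because this order was set by the means of the same 3 libraries, a shared sign between neighbours is favoured in advance. The within-library difference between neighbours in this order exceeded its SD over libraries, with 1 sign in 3 of 3 libraries, in 5 of 8 pairs. These were Cd248 minus Cd34 (1.33 ± 0.44 on the log2 scale), Cd34 minus Pdpn (0.54 ± 0.35), Pdpn minus Vcam1 (2.33 ± 0.63), Icam1 minus Eng (1.09 ± 0.58) and Eng minus Lepr (1.91 ± 0.77). The remaining 3 pairs were within the spread: Vcam1 minus Thy1 was 0.04 ± 0.73, Thy1 minus Icam1 0.23 ± 1.18 and Lepr minus Alcam -0.16 ± 1.69. With 3 libraries an exact sign-flip permutation test (two-sided) cannot give a p under 0.25, which the 5 pairs reached (adjusted over the 8 pairs, exact p = 0.4), so none could pass 0.05.

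The position of Cd34 depended on the length used. Its annotated exons cover 7.29 kb in all, but its longest protein-coding transcript is 2.55 kb, so that its level became 275 CPM per kilobase and Cd248 minus Cd34 turned to -0.17 ± 0.44. Cd34 minus Pdpn then became 2.05. Vcam1, with 8.87 kb of exons and a coding transcript of 3.47 kb, then had 32.2 CPM per kilobase, and Pdpn minus Vcam1 shrank to 1.01. Pdpn and Cd248 have the same length by both rules, 1.82 and 2.61 kb.

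**Figure D4:**
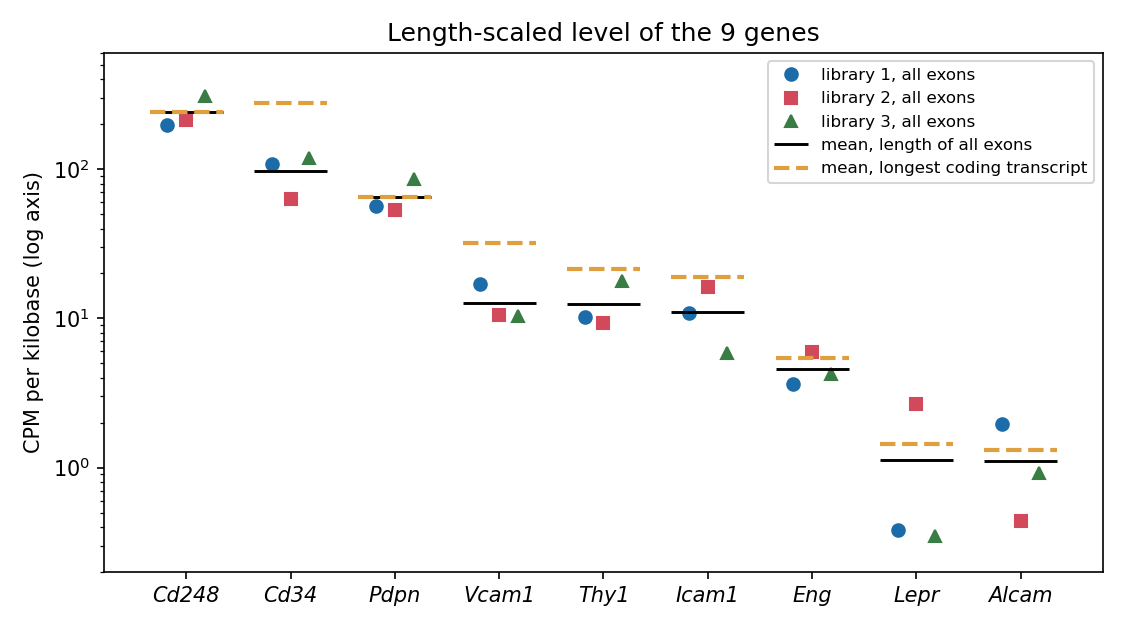
CPM per kilobase (log axis) of the 9 genes in order of their mean, with symbols for libraries and a black line for the mean by the length of all exons. The dashed line is the mean by the length of the longest protein-coding transcript, which lifts Cd34 from 96.5 to 275 and Vcam1 from 12.6 to 32.2 CPM per kilobase.

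Differences between replicate libraries were tested for every gene by setting each library against the other 2. Of 13289 genes tested, edgeR's quasi-likelihood test called 0 in each of the 3 comparisons (0.00% each at an adjusted p under 0.05), while 511, 659 and 674 genes (3.85%, 4.96% and 5.07%) had an unadjusted p under 0.05. None of the 9 genes was therefore called, with adjusted p from 0.895 to 0.999 by edgeR's quasi-likelihood test. Of the 27 tests on them, 1 had an unadjusted p under 0.05: Cd34 in library 2, at -0.84 ± 0.34 (SE) on the log2 scale (edgeR's quasi-likelihood test, adjusted p = 0.977). The largest estimate was that of Lepr in library 2, at 2.86 ± 1.47 (SE), with an adjusted p of 0.977 by the same edgeR test. DESeq2's Wald test called 126, 199 and 197 genes (0.948%, 1.50% and 1.48%) and also 0 of the 9, the lowest adjusted p being 0.148 for Cd34 in library 2. By that test 3 of the 27 had an unadjusted p under 0.05 (Cd34 and Lepr in library 2 and Cd248 in library 3), as did 7.86%, 8.74% and 9.81% of all genes in libraries 1, 2 and 3. The lone library is assumed in both tests to vary as the other 2 do.

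Set against genes of like level, the spread of the 9 genes ranged widely. Lepr had an SD of 117% of its mean, larger than that of 97.3% of 1364 detected protein-coding genes within 1.5-fold of its level. Genes of like mean that fell under 1 CPM in a library, such as Cd52 and Nt5e, are not among these peers. The percentiles therefore hold among detected genes only. Cd34, at 30.4%, exceeded 95.4% of 195 such genes, whose median was 12.8%. Cd248 and Icam1 lay at percentiles 86.6 and 80.4. Pdpn, at 26.9% against a median of 22.1%, lay at percentile 63.8, and Eng was the only one below the median of its peers, at percentile 22.4. By library, 4 of the 9 genes were highest in library 3 (Pdpn, Thy1, Cd34 and Cd248), 3 in library 2 (Eng, Icam1 and Lepr) and 2 in library 1 (Alcam and Vcam1), where 34.1%, 33.2% and 32.7% of all detected genes were highest. No test of these shares was made.

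**Figure D5:**
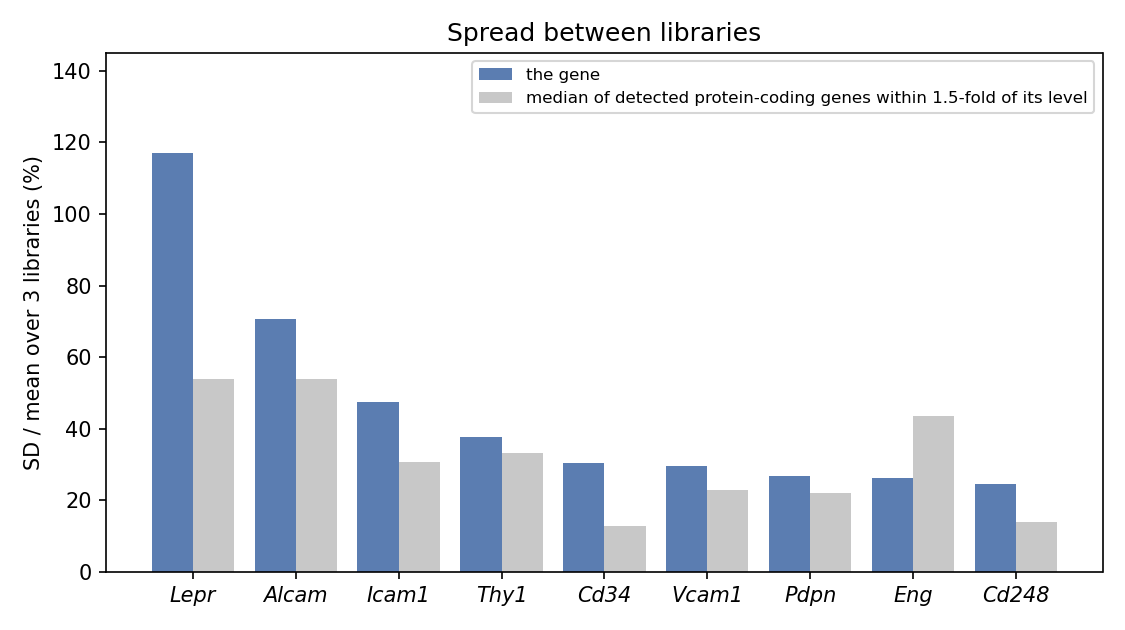
SD as a percent of the mean over 3 libraries for each gene (blue bars) and the median of detected protein-coding genes within 1.5-fold of its mean CPM (grey bars). Lepr has the highest bar at 117%, and Eng alone lies below its grey bar.

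Other surface genes of mesenchymal cells were mostly detected as well. Of 14 such genes, 10 were detected, with a median of 68.3 CPM. Ly6e, a relative of the Sca1 gene, had 401, 311 and 361 CPM, the collagen-binding integrin gene Itga11 had 130 ± 27.1 CPM, and the aminopeptidase gene Anpep (CD13) had 28.3 ± 7.20 CPM. Nt5e, the gene of CD73, which is used with CD90 and CD105 to define cultured mesenchymal stromal cells, was not detected in every library: it had 336, 407 and 0 counts. Thy1 and Eng, the genes of the other two proteins of that panel, were detected in all 3. Mcam (CD146) had 0, 0 and 20 counts, Bst1 0, 1 and 4, and Ngfr 1, 2 and 112.

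Among 9146 other detected protein-coding genes, those whose length-scaled levels lay nearest to Pdpn in all 3 libraries were Atp6ap1, Rpl14, Cxcl13, Rab32 and Mrpl34, with a largest absolute difference of 0.08, 0.13, 0.14, 0.16 and 0.16 on the log2 scale. The chemokine gene Cxcl13 had 62.6, 52.7 and 94.4 CPM per kilobase beside 57.0, 53.5 and 85.5 for Pdpn. With 3 libraries this is likeness in level over 3 points only. The nearest gene to Cd248 was the immediate-early gene Ier2 (0.08), and those nearest to Cd34, Vcam1, Icam1, Thy1, Eng, Lepr and Alcam were Polr2g, Hgsnat, Zfp868, Mrps18a, Map3k3, Plagl2 and Ybey, with largest differences of 0.02 to 0.11.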

How the data were processed

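The authors deposited raw read counts, whole numbers for each NCBI gene ID, with 1 column for each of 3 samples. Full-length cDNA was amplified from few cells with a SMARTer Ultra Low Input kit (V4), per the labels' protocols. CASAVA 1.8.2, STAR 2.3.0 and build mm10 are named in the submitters' processing notes. The counter, the annotation and the use of strand are not given in the sources.

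Gene symbols and coordinates came from RefSeq (GRCm38.p6, 25275 IDs matched), promoter windows from RefSeq on the same build, and exon lengths from GENCODE M21 (21572 genes). R 4.3.3 and edgeR 4.0.16 gave CPM with TMM scaling. For log2 values 0.5 was added, which shrinks differences of low genes. Differences of each library from the remaining pair were tested by edgeR's quasi-likelihood method on genes with 10 or more counts in at least 1 library, Benjamini-Hochberg adjusted over all genes. That test was run on simulated data first. There it missed most of the 4-fold changes set in library 1 and part of the 16-fold ones, and it made false calls. A result of 0 calls therefore does not show that the libraries agree. DESeq2 1.42.0 gave alternative size factors and a Wald test. Python 3.11.15, scipy 1.17.1 and pandas 2.3.3 were used. In each pair of libraries, 87.1% to 88.1% of genes with 20 or more counts differed beyond counting noise (chi-square p under 0.05), so all 3 were kept as separate samples.

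The members, gene lists and marker lists were chosen with earlier results of these data known. The text names the 9 genes, genes of the sorted proteins, members of the lists and the genes of nearest level (5 for Pdpn, 1 for each other gene). A few list members are not reported here. The pairs set against related genes, the overlapping genes, the promoter motifs and the longest protein-coding transcript as a length were chosen after the data were seen. Alternatives were other scalings, lengths, pseudocounts, thresholds and filters, and leaving out each library.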

Additional observations from a re-analysis of the deposited data

How the results depend on the processing

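Scaling with DESeq2 size factors or total counts moved the mean of each of the 9 genes by less than its SD and reversed no difference between neighbours. With the longest transcript as length, Cd248 minus Cd34 fell to 0.09 ± 0.44, within the spread between libraries. With the longest protein-coding transcript it reversed to -0.17. Both changes arise by construction from the shorter Cd34 length. Leaving out each library in turn gave -0.29 to 0.43 for Vcam1 minus Thy1, -0.43 to 0.72 for Thy1 minus Icam1, -1.11 to 0.51 for Lepr minus Alcam and -0.054 to 0.26 for Cd248 minus Thbd, so these have no stable sign. Mean CPM then ran from 2.58 to 10.8 for Lepr and from 4.91 to 10.3 for Alcam. Genes called in libraries 1, 2 and 3 numbered 0 by edgeR's quasi-likelihood test, 126, 199 and 197 by DESeq2's Wald test and 16, 16 and 36 by the edgeR test over genes with at least 1 count. The cause was not tested, and 0 of the 9 genes were called by any of the 5 fits. With 1 library against 1, no test was possible. No pairing of samples between conditions was possible because there is 1 group. A count of 0 still allows 0.0945 to 0.119 CPM.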

Other observations

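Stromal genes of bone marrow and lymphoid organs, in which Lepr, Vcam1 and Pdpn are used as markers, were mostly detected: 9 of 11, with a median of 23.4 CPM. Cxcl12, the chemokine that retains blood stem cells, had 387, 513 and 360 CPM. The transcription factor genes Foxc1 and Ebf3, known from marrow stroma, had 18.01 ± 3.97 and 28.6 ± 10.96 CPM. Both were highest in library 2, as was Lepr, but their ranges of 13.6 to 21.2 and 18.7 to 40.4 CPM were narrower than that of Lepr. Other genes of the list went the other way: Kitl had 2854, 129 and 303 counts, and Kitl, Il7, Ccl19 and Cxcl13 were lowest in library 2. The lymphotoxin receptor gene Ltbr had 15.1, 33.0 and 22.3 CPM. Tnfsf11 (RANKL) had 42, 186 and 0 counts, and Madcam1 had 3 counts in all. Angpt1, which encodes a ligand of the TEK receptor, had 636, 123 and 50 counts, highest in library 1, as Alcam was.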
